A study of Mus musculus with 12 samples.

Results

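Gap junction transcripts were followed in mouse liver cells sorted at successive stages of conversion from hepatocyte to biliary cell, for the connexins Gjb1, Gjb2, Gja1 and Gjc1. The members were the rows of the deposited count table that carry these gene symbols, 4 of 53599 rows. Gjb1 and Gjb2, the main connexins of hepatocytes, fell over both steps of the conversion, while Gja1 was near 0 until the last hepatocyte-derived stage and was highest in resident biliary cells. Gjc1 had few counts, with its highest mean in the full stage.

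Connexins are the membrane proteins of gap junctions, channels that dock across the contact of neighbouring cells and let ions, second messengers and small metabolites pass between their interiors. Hepatocytes are coupled mainly by Cx32 (Gjb1) and Cx26 (Gjb2), which can assemble into mixed channels, and this coupling spreads calcium waves and hormone and nerve signals across the liver lobule. Cx43 (Gja1) is the most widely expressed connexin and is known from many other epithelia and from mesenchymal and endothelial cells, while Cx45 (Gjc1) is known from smooth muscle, heart and developing vessels.

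The libraries came from wild-type (WT) mice that received AAV8-TBG-Cre. In this virus a hepatocyte promoter (TBG) drives Cre recombinase, and EGFP then marks hepatocytes and their descendants. The injection was followed after 1 week by 8 weeks on a diet with 0.1% of DDC, a compound that injures bile ducts. The early group was EGFP+ Cd24- Epcam-, the intermediate group EGFP+ Cd24+ Epcam-, the full group EGFP+ Cd24+ Epcam+, and the group of resident biliary epithelial cells (BEC) EGFP- Epcam+, with 3 libraries in each of the 4 groups. All 4 groups shared the virus and the diet, so none is an uninjured control, and the age of the mice and the reporter allele were not given in the sources used here. EGFP marks only cells that the virus reached, so the BEC gate could also hold biliary cells derived from unmarked hepatocytes. Nothing states that replicates came from separate animals, so p-values measure only the spread between these libraries.

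Total counts ran from 15112893 to 19731887 per library. Levels are given as CPM, the count of a gene scaled to a common library size with TMM factors, and 3 counts in a library, the floor used here, correspond to between 0.128 and 0.273 CPM. For the sort markers, mean Cd24a was 3.20, 444, 1073 and 1072 CPM and mean Epcam 0.591, 18.8, 254 and 865 CPM in early, intermediate, full and BEC. Each was lower in groups gated negative for it than in groups gated positive. Epcam also differed between early and intermediate, which were both Epcam- (edgeR adjusted p 7.69e-08). Of 10 hepatocyte markers, 10 were lower in intermediate than in early and 10 lower in full than in intermediate, where 25.7% and 19.8% of all genes were called lower. In early, 4 of 10 biliary markers (Krt19, Cftr, Sctr and Tff2) were at or under the floor in each library.

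RefSeq promoter windows (build GRCm38.p6) were matched for 3 of the 4 members, and Gjc1 had no entry. The windows that held a motif searched are shown because the members that fell and the member that rose can be set side by side there. Each is the stretch of 250 bases before a transcript start, written 5′ to 3′ on the strand of the gene, and capitals mark the motifs. Gjb1 had 4 windows, of which those at chrX:101376985-101377234 and chrX:101383482-101383731 on the plus strand held motifs. The Gjb2 window lies at chr14:57104703-57104952 on the minus strand and the Gja1 window at chr10:56377050-56377299 on the plus strand.
Gjb1 upstream window: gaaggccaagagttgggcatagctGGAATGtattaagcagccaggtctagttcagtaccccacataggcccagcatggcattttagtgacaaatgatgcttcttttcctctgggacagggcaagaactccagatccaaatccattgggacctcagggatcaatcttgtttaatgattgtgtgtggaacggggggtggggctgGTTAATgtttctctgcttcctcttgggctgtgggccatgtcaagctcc
Gjb1 downstream window: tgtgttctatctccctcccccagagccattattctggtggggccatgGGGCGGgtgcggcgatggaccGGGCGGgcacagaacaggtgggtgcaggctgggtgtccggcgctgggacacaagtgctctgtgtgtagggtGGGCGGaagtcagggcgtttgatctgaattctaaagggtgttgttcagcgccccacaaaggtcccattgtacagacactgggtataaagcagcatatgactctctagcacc
Gjb2 window: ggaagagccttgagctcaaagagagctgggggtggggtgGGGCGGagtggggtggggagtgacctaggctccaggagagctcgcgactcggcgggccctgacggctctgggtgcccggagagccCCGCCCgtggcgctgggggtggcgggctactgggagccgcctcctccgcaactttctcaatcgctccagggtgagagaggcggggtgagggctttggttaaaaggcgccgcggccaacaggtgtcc
Gja1 window: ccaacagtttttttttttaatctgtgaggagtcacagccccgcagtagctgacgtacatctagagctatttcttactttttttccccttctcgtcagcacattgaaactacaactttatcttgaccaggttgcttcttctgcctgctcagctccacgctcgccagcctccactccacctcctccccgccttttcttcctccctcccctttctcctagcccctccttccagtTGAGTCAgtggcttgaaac

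Letters were searched on both strands for GGGCGG (Sp1 type), TGANTCA (AP-1 type), GTTAAT (HNF1 type) and GGAATG (TEAD type), none of which overlapped another. The upstream Gjb1 window held GTTAAT starting 48 bases and GGAATG starting 226 bases before the start, and the downstream one held GGGCGG at 203, 182 and 111 bases. The Gjb2 window held GGGCGG at 211 bases and, on the opposite strand, at 126 bases. The Gja1 window held TGAGTCA, an AP-1 type match, 19 bases before the start. Of 32851 mouse windows of this length, 32.7% held GGGCGG, 6.75% TGANTCA, 6.43% GTTAAT and 12.6% GGAATG. The bases after the start lay in a GENCODE M21 transcript for the downstream Gjb1 and the Gjb2 windows. They did not for the upstream Gjb1 and the Gja1 windows, so those starts are less certain. These matches describe letters only.

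Gjb1, which encodes Cx32, the most abundant gap junction protein of the hepatocyte, was the leading member in the early group. Its level was 923.5, 776.2 and 801.3 CPM in the early libraries, 255, 239.5 and 244.9 CPM in intermediate, 85.6, 70.38 and 73.92 CPM in full, and 88.54, 92.2 and 93.07 CPM in BEC. Every early library was above every intermediate one and every intermediate one above every full one, and the 3 BEC libraries lay just above the 3 full ones. The means were 834 ± 78.8, 246 ± 7.87, 76.6 ± 7.96 and 91.3 ± 2.40 CPM (SD, n = 3 each). The fall was close to even over the 2 steps. Intermediate against early gave a log2 fold change of -1.76 (SE 0.10, edgeR adjusted p 1.18e-08), and full against intermediate gave -1.68 (SE 0.10, edgeR adjusted p 7.50e-08). With libraries scaled by total counts the first step was -1.09 (edgeR adjusted p 2.49e-07). The difference between the step sizes was 0.07 (SE 0.17, edgeR adjusted p 0.830), and it was -0.39 when libraries were scaled by total counts (edgeR adjusted p 0.0692). Of all genes tested, 54.4% were called for intermediate against early and 40.7% for full against intermediate, and 58.7% and 55.0% had groups that did not overlap, so a call alone is common in these data. Each of the 3 members tested also differed among the 4 groups (edgeR adjusted p 8.11e-12 for Gjb1, 3.41e-11 for Gjb2 and 4.82e-11 for Gja1), where 75.6% of genes did.

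BEC held slightly more Gjb1 than full, by 0.25 on the log2 scale (SE 0.10), which missed the threshold (edgeR adjusted p 0.0939), in a comparison where 21.3% of genes were called and 39.6% had groups that did not overlap. It was called with the replicate number as a block (0.26, edgeR adjusted p 0.0383), by DESeq2 (0.26, adjusted p 0.0429) and without full replicate 1 (0.34, edgeR adjusted p 0.0430). Against early, Gjb1 was lower by 3.44 in full (log2 fold change -3.44, edgeR adjusted p 1.81e-11) and by 3.19 in BEC (-3.19, edgeR adjusted p 1.39e-11), where 71.2% and 73.0% of genes were called. BEC was also below intermediate (-1.43, edgeR adjusted p 4.72e-08), with 52.5% of genes called. The order was thus early, intermediate, then BEC and full, whose difference was not called.

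Gjb2, which encodes Cx26, the partner that joins Cx32 in mixed hepatocyte channels, fell further than Gjb1. It had 568.7, 544.9 and 599.7 CPM in early, 109.4, 96.93 and 152.4 CPM in intermediate, 19.13, 16.3 and 23.42 CPM in full, and 9.431, 8.703 and 13.42 CPM in BEC. The 4 groups did not overlap and stood in the order early, intermediate, full, BEC, with replicate 3 the highest library of each group. The means were 571 ± 27.5, 120 ± 29.1, 19.6 ± 3.58 and 10.5 ± 2.54 CPM (SD, n = 3 each). Log2 fold changes were -2.26 for intermediate against early (SE 0.19, edgeR adjusted p 3.05e-07) and -2.61 for full against intermediate (SE 0.19, edgeR adjusted p 3.49e-07), the first being -1.59 with total counts (edgeR adjusted p 2.89e-06). The steps differed by -0.35 (SE 0.31, edgeR adjusted p 0.512), which was called with total counts (-0.81, edgeR adjusted p 0.0485). Gjb2 was also called lower in BEC than in full (-0.90, SE 0.20, edgeR adjusted p 0.00439). Over the whole range, Gjb2 in full and in BEC lay below early by log2 fold changes of -4.86 (edgeR adjusted p 2.16e-10) and -5.76 (edgeR adjusted p 4.62e-11), and in BEC below intermediate by -3.51 (edgeR adjusted p 8.93e-09). With total counts, full and BEC against early were -2.58 and -2.32 for Gjb1 and -3.999 and -4.89 for Gjb2, all called.

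**Figure D1:**
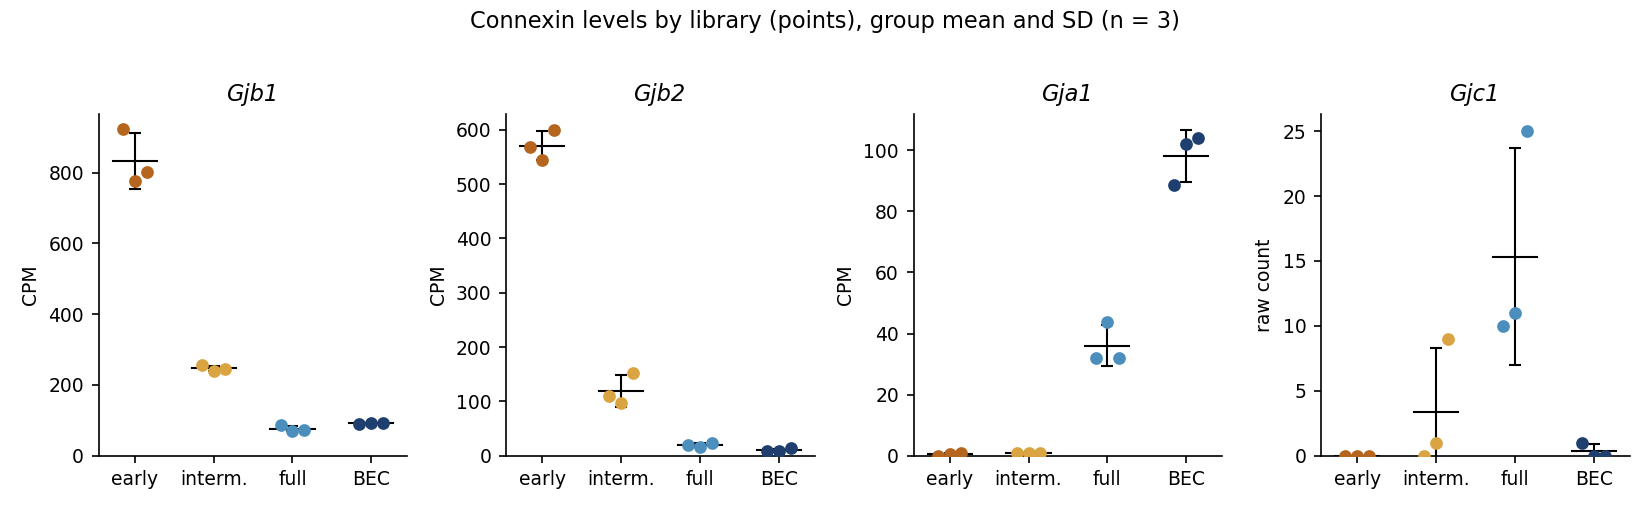
Level of Gjb1, Gjb2 and Gja1 in CPM and raw counts of Gjc1 in each library by group; points are libraries, long bars group means and error bars SD (n = 3), and each vertical axis starts at 0. Gjb1 and Gjb2 drop from early (means 834 and 571 CPM) to full (76.6 and 19.6 CPM), Gja1 appears in full (36.0 CPM) and is highest in BEC (98.2 CPM), and Gjc1 peaks at 25 counts in full replicate 3.

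The balance of Gjb2 to Gjb1 within a library does not depend on the scaling of libraries. The log2 ratio of Gjb2 to Gjb1 counts was -0.70, -0.51 and -0.42 in early, -1.22, -1.30 and -0.68 in intermediate, -2.16, -2.11 and -1.66 in full, and -3.23, -3.40 and -2.79 in BEC. Early and intermediate overlapped through intermediate replicate 3, although the ratio was lower in intermediate for each of the 3 replicate numbers, while full lay below intermediate and BEC below full in every library. No test was run on these ratios.

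The levels of Gjb1 and Gjb2 were set beside those of hepatocyte markers, each as a percentage of its early mean. BEC are a separately sorted population and not a later stage of the marked cells, so their percentages compare populations. Relative to its early mean, Gjb1 stood at 29.6% ± 0.943, 9.19% ± 0.955 and 10.9% ± 0.288 (SD, n = 3 each) in intermediate, full and BEC. Gjb2 stood at 20.9% ± 5.10, 3.43% ± 0.627 and 1.84% ± 0.445 (SD, n = 3 each). The medians of the 10 hepatocyte markers were 21.0%, 8.41% and 3.51%, with ranges from 8.03% (Asgr1) to 55.9% (Hnf4a), from 0.939% (Asgr1) to 17.9% (Serpina1c), and from 0.931% (Apoa1) to 11.4% (Hnf4a). In BEC, 1 of the 10 markers, the transcription factor Hnf4a, had a higher percentage than Gjb1, whereas 6 of 10 had a higher percentage than Gjb2. In BEC against full, 7 of the 10 markers were called lower, as Gjb2 was, where 10.6% of all genes were called lower. These percentages are descriptions of group means. In bulk libraries, fewer cells that express a gene and less of its RNA per cell cannot be told apart.

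**Figure D2:**
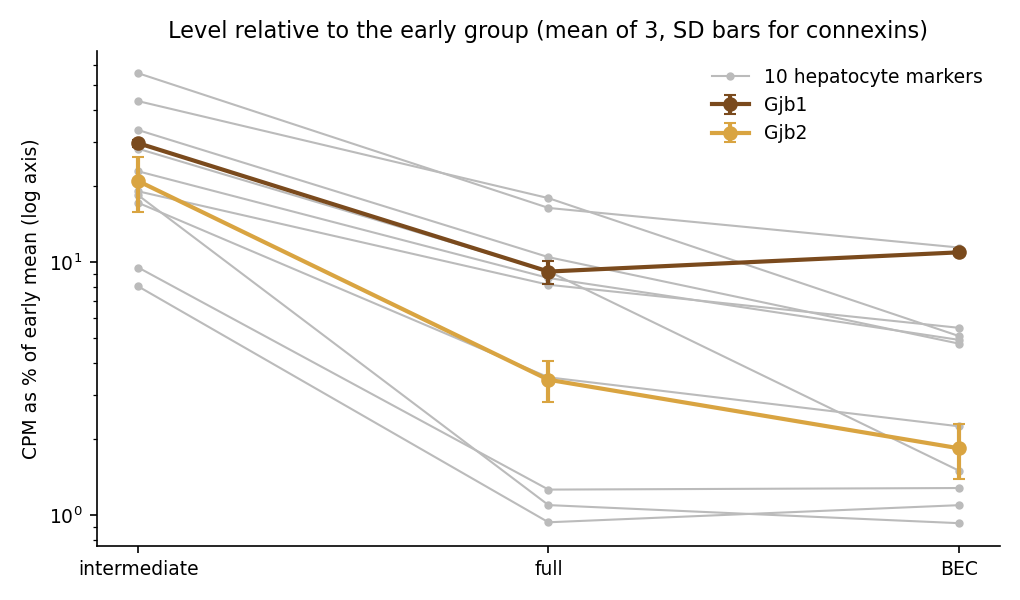
Mean CPM in intermediate, full and BEC as a percentage of the early mean, on a log axis, for Gjb1 and Gjb2 (SD bars, n = 3) and for each of 10 hepatocyte markers (grey). Gjb1 is at 9.19% in full and 10.9% in BEC while Gjb2 is at 3.43% and 1.84%, and the markers lie between 0.931% and 11.4% in BEC.

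Gja1, which encodes Cx43, a channel of many epithelial and mesenchymal cells, had the opposite profile. Its raw counts were 0, 6 and 10 in early, 14, 16 and 14 in intermediate, 755, 983 and 734 in full, and 1839, 2192 and 2278 in BEC. In CPM these were 0, 0.5451 and 0.8085 in early, 0.8792, 0.8757 and 0.7916 in intermediate, 32.09, 43.79 and 32.07 in full, and 88.49, 102 and 104 in BEC. Early and intermediate overlapped, every full library was far above them, and every BEC library was above every full one. Intermediate against early gave a log2 fold change of 0.92 that was not called (SE 0.55, edgeR adjusted p 0.172). That value was called with total counts (1.57, edgeR adjusted p 0.0199) and without early replicate 3 (1.72, edgeR adjusted p 0.0482), and without early replicate 1, the library with 0 counts, it was 0.31 (edgeR adjusted p 0.550). Full against intermediate gave 5.40 (SE 0.29, edgeR adjusted p 3.39e-08), from 0.849 ± 0.0496 to 36.0 ± 6.76 CPM (SD, n = 3). BEC against full gave 1.45 (SE 0.20, edgeR adjusted p 0.000120), with BEC at 98.2 ± 8.43 CPM (SD, n = 3).

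The rise of Gja1 was of unequal size at the 2 steps. Its second step exceeded the first by 4.47 on the log2 scale (SE 0.84, edgeR adjusted p 0.00263), in a test that called 16.4% of all genes. This difference was 3.68 without early replicate 3 (edgeR adjusted p 0.0402) and 5.08 without early replicate 1 (edgeR adjusted p 7.63e-05). Against early, Gja1 was higher by log2 fold changes of 6.32 in full (edgeR adjusted p 1.38e-09) and 7.76 in BEC (edgeR adjusted p 1.07e-10), and against intermediate it was higher by 6.84 in BEC (edgeR adjusted p 6.43e-10). The early counts behind the first 2 of these were 0 to 10 per library, and without early replicate 1 they were 5.70 and 7.15, without early replicate 3 7.11 and 8.56, and with total counts 7.17 and 8.62, all called. The log2 ratio of Gja1 to Gjb1 counts was -8.13 ± 0.0860 in intermediate, -1.10 ± 0.376 in full and 0.10 ± 0.0890 for BEC (SD, n = 3 each), which compares changes between groups and not levels of the 2 genes, since counts are not corrected for length. The ratio of Gja1 to Gjb2 went from -7.06 ± 0.418 in intermediate to 0.87 ± 0.498 and 3.24 ± 0.298 in full and BEC (SD, n = 3 each).

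**Figure D3:**
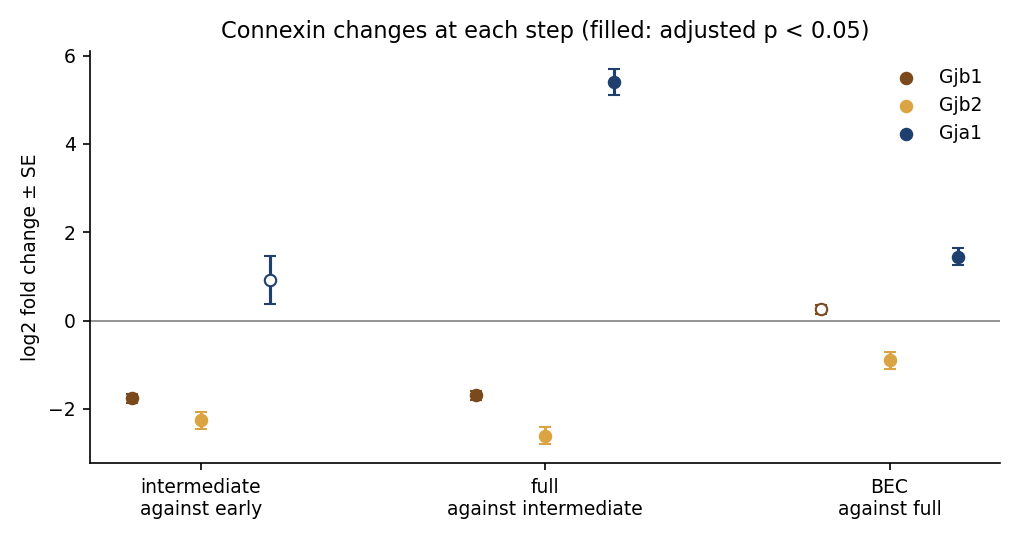
Log2 fold change with its standard error for Gjb1, Gjb2 and Gja1 at the 3 steps, from edgeR; filled points passed an adjusted p of 0.05 and open points did not. Gjb1 and Gjb2 lie below 0 at the first 2 steps, Gja1 is at 5.40 for full against intermediate, and at BEC against full Gjb2 (-0.90) and Gja1 (1.45) are filled while Gjb1 (0.25) is open.

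Since Gja1 is also expressed by mesenchymal, endothelial and mesothelial cells, markers of other cell types were set beside it. The summed level of 10 stellate cell and fibroblast markers ran from 113 to 332 CPM in early, 67.8 to 195 in intermediate, 49.9 to 86.8 in full and 65.1 to 111 in BEC, and none of the 10 was called higher at any of the 3 steps (2, 1 and 1 were lower). Between full and BEC, where Gja1 was also higher, 4 of the 10 did not overlap, beside 39.6% of all genes. Col1a2, Col3a1 and Pdgfrb were higher in BEC (14.7 against 6.99, 25.9 against 11.5 and 2.57 against 1.41 CPM) and were not called, and Reln was called lower (8.96 against 21.6 CPM, edgeR adjusted p 0.0200). Endothelial markers summed to between 20.5 and 37.9 CPM in early and between 12.4 and 15.03 CPM in full, and of 9 tested, 2 were called higher and 1 lower at the first step, 0 higher and 3 lower at the second, and 1 higher and 0 lower in BEC against full, beside 28.7% and 25.7%, 20.8% and 19.8%, and 10.7% and 10.6% of all genes. The marker called higher in BEC was Vwf (5.48 against 2.39 CPM). Of the smooth muscle markers, Acta2, Myh11 and Tagln each had a mean under 1 CPM in every group, and the summed level was carried by Rgs5 (40.9, 1968, 3182 and 1916 CPM). Both smooth muscle markers tested, Rgs5 and Cnn1, were called higher at the first step (Cnn1 from 0.118 to 0.971 CPM, edgeR adjusted p 0.0123), Rgs5 was also called higher at the second and lower in BEC against full, and Cnn1 was not called there. The mean summed level of stellate and fibroblast markers was lower in full and BEC (67.3 and 85.4 CPM) than in early (246 CPM), and that of endothelial markers likewise (14.0 and 17.3 against 31.0 CPM). The part of these cell types in the Gja1 result was not tested.

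The summed levels of mesothelial and of macrophage markers were higher in full than in intermediate and higher again in BEC, as Gja1 was, and their part in the result was not tested. The 6 mesothelial markers summed to between 2.45 and 3.50 CPM in intermediate, 29.7 and 44.9 in full and 225 and 249 in BEC, with 3 of 5 tested called higher in full (20.8% of all genes) and 2 of 5 in BEC against full (10.7%). Msln (198 CPM in BEC) and Gpm6a (41.4 CPM) carried the sum. Wt1 was called higher in full than in intermediate (1.35 against 0.150 CPM, edgeR adjusted p 0.00632). Its mean in BEC was 0.470 CPM, which was not called against full (edgeR adjusted p 0.128). Krt14 was at 0 counts in each library, and Upk3b and Lrrn4 had means of 0.682 and 0.0924 CPM in BEC. The 10 macrophage markers summed to between 30.6 and 40.6 CPM in intermediate, 66.7 and 95.6 in full and 133 and 162 in BEC, with Csf1r alone at 24.6, 67.7 and 127 CPM. Of 9 macrophage markers tested, 1 (Csf1r) was called higher in full against intermediate and 2 (Csf1r and Cd68) in BEC against full, where 20.8% and 10.7% of all genes were called higher. Csf1r also rose at the first step, from 3.94 to 24.6 CPM (edgeR adjusted p 8.55e-10), where Gja1 was not called and Cd68 fell from 13.9 to 2.74 CPM (edgeR adjusted p 7.96e-06). Adgre1, Ptprc and C1qa had means of 0.522, 0.680 and 2.41 CPM in BEC. Cd5l, Lyz2 and Clec4f had means of 4.60, 3.98 and 3.68 CPM there, against 2.55, 2.54 and 1.85 CPM in full, and were not called. C1qb and Marco, not called either, had 1.78 and 1.22 CPM in BEC against 1.43 and 0.898 CPM in full. Markers of B, T and NK cells summed to at most 2.17 CPM in any library.

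Gjc1, which encodes Cx45, was present at trace levels. The symbol is also an older name of Gjd3, which has its own row with at most 3 counts in any library. Raw counts were 0, 0 and 0 in early, 0, 1 and 9 in intermediate, 10, 11 and 25 in full, and 1, 0 and 0 in BEC. In raw counts all 3 full libraries were above every other library, but in CPM the full libraries (0.425, 0.490 and 1.092) overlapped intermediate replicate 3 (0.5089). The mean in full was 0.669 ± 0.368 CPM (SD, n = 3), at least 2.67-fold higher than in early when the early libraries are set at the floor of 3 counts each. Gjc1 did not pass the filter on low counts and so has no value in the test of 16210 genes. In a fit of 30230 genes without that filter, it differed between BEC and full (edgeR adjusted p 0.000776, 11.9% of genes called), between full and early (edgeR adjusted p 0.000332, 39.5% called) and between intermediate and early (edgeR adjusted p 0.0424, 28.5% called), and it was not called between full and intermediate (edgeR adjusted p 0.158, 20.9% called). BEC was not called against intermediate (edgeR adjusted p 0.0617, 28.4% called) or against early (edgeR adjusted p 0.574, 41.2% called). The intermediate value rests mainly on the 9 counts of replicate 3.

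To compare connexins with each other, CPM was divided by the length of each gene's merged exons in the GENCODE M21 annotation. On this scale Gjb1 was at 488, 144, 44.9 and 53.5 CPM per kb in early, intermediate, full and BEC. Within the 4 members, Gjb1 made up 67.2%, 74.5%, 79.1% and 79.4% of the sum and Gjb2 32.8%, 25.4%, 14.4% and 6.46%. Gja1 made up 0.00626%, 0.0428%, 6.27% and 14.2%. The Gja1 figure depends on the length used, since its merged exons span 10257 bases and its longest transcript 3889. With the longest transcript, Gja1 made up 14.1% ± 3.37 in full and 28.9% ± 1.19 in BEC, and with coding length 20.9% ± 4.67 and 41.0% ± 1.41 (SD, n = 3 each). Under all 3 lengths, Gjb1 was the largest of the 4 mean shares in each group, and Gja1 exceeded Gjb2 in BEC. In full, Gja1 was below Gjb2 on merged exons and close to it with the longest transcript (14.1% against 12.4%) and with coding length (20.9% against 19.1%), where the SDs overlap.

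**Figure D4:**
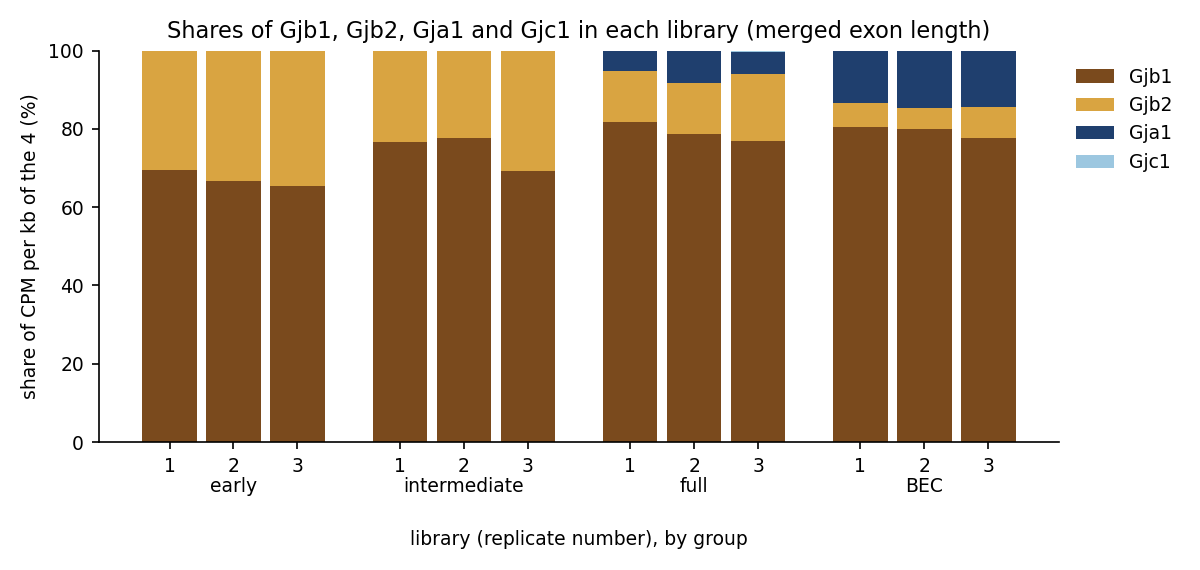
Share of Gjb1, Gjb2, Gja1 and Gjc1 in their summed CPM per kb on merged exon length; each bar is 1 library, and libraries are grouped by stage. Gjb1 is the largest in each library, Gjb2 shrinks from 32.8% in early to 6.46% in BEC on average, and Gja1 appears in full (6.27%) and grows in BEC (14.2%).

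Other connexins that passed the filter included Gjb5, Gja4, Gjc3 and Gja5. Gjb5 (Cx31.1), a connexin best known from skin, had a profile like that of Gja1. It had at most 1 count in each early library, 0 counts in intermediate, 0.680, 0.6682 and 0.5679 CPM in full and 2.021, 2.42 and 3.058 CPM in BEC. It was at least 3.67-fold higher in full than in intermediate (edgeR adjusted p 0.000195), with the intermediate libraries at the floor, and higher in BEC than in full by 1.96 on the log2 scale (SE 0.39, edgeR adjusted p 0.00341). Gja4 (Cx37), a connexin of arterial endothelium, was not called at these steps: its log2 fold changes were 0.86, -1.78 and 2.21 (edgeR adjusted p 0.392, 0.0914 and 0.0537). The 3 BEC libraries of Gja4 were above the 3 full ones, at 12 to 18 counts against 0 to 7, and a fit that blocked on replicate number called this difference (2.33, edgeR adjusted p 0.0247), as did those by DESeq2 (2.27, adjusted p 0.0389), without the filter (2.18, edgeR adjusted p 0.0389), of the 6 libraries alone (2.20, edgeR adjusted p 0.0422) and without early replicate 1 (2.21, edgeR adjusted p 0.0484), early replicate 2 (2.22, edgeR adjusted p 0.0435) or full replicate 2 (3.30, edgeR adjusted p 0.0318). Full against intermediate was called without full replicate 2 (-2.87, edgeR adjusted p 0.0425).

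Gjc3 (Cx29), a connexin of myelinating cells, went down with the hepatocyte pair. It had 27, 24 and 15 counts in early, 6, 12 and 8 in intermediate, and at most 1 count per library in full and BEC. The first step was -1.87 (SE 0.49, edgeR adjusted p 0.00529; -1.21 with total counts, edgeR adjusted p 0.0409), and the second was called as well (edgeR adjusted p 0.000726). Gja5 (Cx40), a vascular connexin, was called higher in intermediate than in early (2.15, SE 0.73, edgeR adjusted p 0.0222) at means of 0.637 and 0.144 CPM. The Gja5 groups overlapped, the call was lost without early replicate 1 (1.87, edgeR adjusted p 0.0836), early replicate 3 (1.88, edgeR adjusted p 0.0835), intermediate replicate 2 (1.86, edgeR adjusted p 0.0804) or intermediate replicate 3 (1.91, edgeR adjusted p 0.0734), and Gja5 overlaps antisense genes that the counting may not separate. Of the 7 connexins described here that were tested, 1 was called higher and 3 lower in intermediate than in early, where 28.7% of all genes were higher and 25.7% lower. In full against intermediate, 2 were higher and 3 lower (20.8% and 19.8% of all genes), and in BEC against full 2 were higher and 1 lower (10.7% and 10.6%).

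Pannexins are a separate family of membrane channels, and the 2 that were tested differed in profile. Panx1, a channel that releases ATP, rose at the first step, from 7.80 ± 1.23 to 19.1 ± 0.941 CPM (SD, n = 3, log2 fold change 1.30, SE 0.13, edgeR adjusted p 2.51e-06), or 1.96 with total counts (edgeR adjusted p 3.66e-08). It stood at 19.2 ± 1.72 CPM in full and 15.4 ± 0.688 CPM in BEC (SD, n = 3), with log2 fold changes of 0.00 (edgeR adjusted p 0.984) and -0.32 (edgeR adjusted p 0.0895). Its second step was smaller than its first by 1.29 on the log2 scale (log2 difference -1.29, SE 0.22, edgeR adjusted p 0.00123), whereas that of Gja1 was larger. Panx2, which overlaps an antisense gene, was called at the second step (1.82, SE 0.54, edgeR adjusted p 0.0152) at means of 0.219 and 0.770 CPM, a call lost without full replicate 2 (1.56, edgeR adjusted p 0.0677), intermediate replicate 2 (1.49, edgeR adjusted p 0.0785) or intermediate replicate 3 (1.66, edgeR adjusted p 0.0636). Mean Panx2 was lowest in early (0.0533 CPM) and highest in BEC (1.65 CPM). BEC was called above intermediate (2.91, edgeR adjusted p 0.000306) and not above full (1.09, edgeR adjusted p 0.0881).

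**Figure D5:**
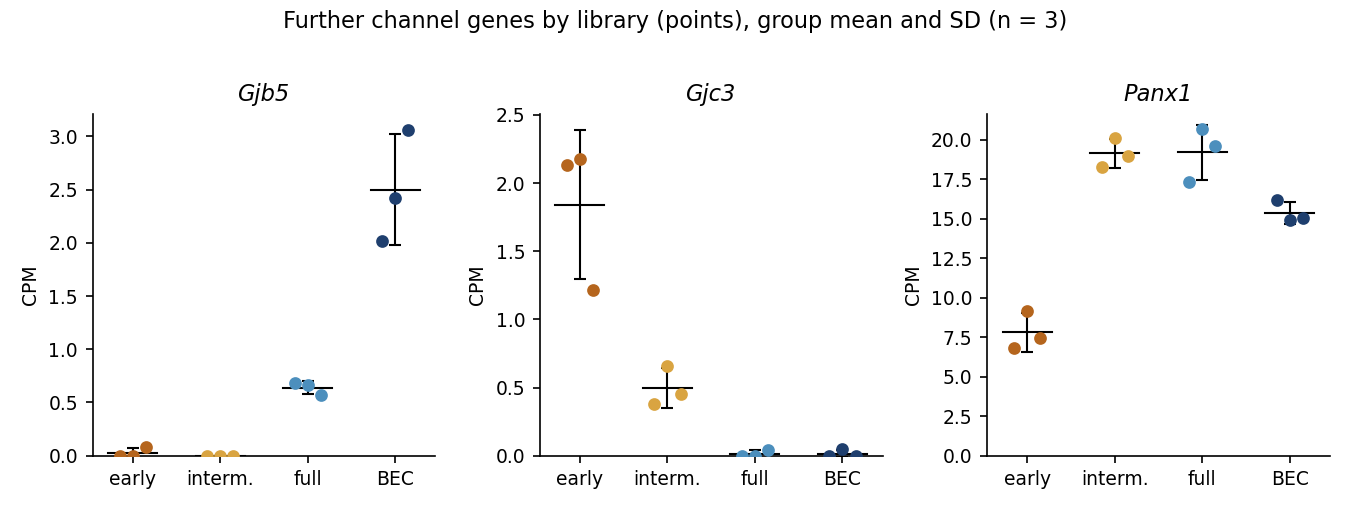
CPM of Gjb5, Gjc3 and Panx1 in each library by group; points are libraries, long bars means and error bars SD (n = 3), and axes start at 0 with a different range in each panel. Gjb5 is highest in BEC (mean 2.50 CPM), Gjc3 is highest in early (1.84 CPM), and Panx1 is lowest in early (7.80 CPM).

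Transcripts of proteins that bind, deliver or modify connexins were counted at each step, beside 28.7% of all genes called higher and 25.7% lower at the first step, 20.8% and 19.8% at the second, and 10.7% and 10.6% in BEC against full. Of 11 scaffold and trafficking partners tested, 7 were higher and 1 lower in intermediate than in early (median log2 fold change 0.61 against 0.06 over all genes), 2 were higher and 0 lower in full than in intermediate (0.16 against 0.01), and 0 were higher and 2 lower in BEC than in full (-0.02 against 0.00). Nedd4, a ubiquitin ligase that acts on Cx43, rose from 686 ± 29.8 to 1187 ± 81.7 CPM, and Tjp1 (ZO-1), which binds the tail of Cx43, rose from 127 ± 19.0 to 230 ± 14.7 CPM (SD, n = 3 each). Erp29, a chaperone of Cx43 assembly, was called lower, from 66.7 ± 5.99 to 48.0 ± 5.75 CPM (SD, n = 3), a direction that turned with total counts (0.19, edgeR adjusted p 0.160). Of 8 kinases known to phosphorylate connexins, 7 were higher and 0 lower at the first step (median 0.36), 1 higher and 1 lower at the second (0.11), and 0 higher and 1 lower in BEC against full (-0.04). Mapk3 rose from 147 ± 17.3 to 185 ± 9.37 CPM and Akt1 from 125 ± 8.92 to 159 ± 16.8 CPM at the first step (SD, n = 3 each), while Prkca fell at the second step, from 78.7 ± 2.11 to 61.2 ± 4.01 CPM, and again in BEC (45.0 ± 2.60 CPM, SD, n = 3 each). With total counts, the second-step call of Prkca was lost (-0.16, edgeR adjusted p 0.153), 6 partners and 6 kinases were called higher at that step, and 10 partners and 8 kinases at the first.

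The adherens junction, whose cadherin contacts are known to precede gap junction assembly, gained transcripts while Gjb1 and Gjb2 lost theirs. Of its 6 core genes, 6 were higher in intermediate than in early (median of log2 fold changes 0.86), 4 were higher at the second step (0.36), and 2 higher and 1 lower in BEC against full (0.12), where 28.7%, 20.8% and 10.7% of all genes were called higher. Cdh1 (E-cadherin) was at 335 ± 30.2, 633 ± 28.5, 1105 ± 31.9 and 1501 ± 69.1 CPM in early, intermediate, full and BEC, and Ctnnb1 (beta-catenin) at 423 ± 51.2, 757 ± 18.2, 1025 ± 46.7 and 1281 ± 57.7 CPM (SD, n = 3 each). Cdh2 (N-cadherin) was the exception in BEC, at 33.0 ± 6.52 CPM against 259 ± 8.69 CPM in full (SD, n = 3 each).

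Zonation markers were counted because Cx26 is known to be richest in periportal hepatocytes in some species. Of 10 periportal markers, 9 were lower in intermediate than in early, 10 lower in full than in intermediate and 2 lower in BEC than in full, where 25.7%, 19.8% and 10.6% of all genes were called lower. Of 10 pericentral markers, 10 were lower at the first step, 5 lower and 1 higher at the second, and 2 lower and 2 higher in BEC against full. Of 10 biliary markers, 9 were higher at the first step, 7 higher and 1 (Aqp1) lower at the second, and 5 higher in BEC against full, where 28.7%, 20.8% and 10.7% of all genes were called higher.

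Genes whose profile was most like each member were ranked by Pearson's r of log2 CPM over the 12 libraries among 10922 genes with a group mean of at least 10 CPM. For Gjb1 these were Gpd1 (r = 0.9962), Hrg, Pon1, Mgst1 and Bphl. For Gjb2 they included Hc (0.998), which encodes complement C5, and Ak4, Sord and Apom. For Gja1 they were Sod3 (0.9948), the extracellular superoxide dismutase, then Adamts5, Chst15, Cnksr1 and Serpinh1. The libraries share 4 group means, so high values are common, and by Spearman's rho 0 of the 5 stayed in the first 5 for Gjb1 and for Gja1, and 2 of the 5 for Gjb2. Of those like Gjb1, Gpd1 and Mgst1 stood at a similar share of the early mean, 12.02% ± 1.30 and 10.1% ± 1.01 in full and 12.3% ± 0.551 and 10.8% ± 0.556 in BEC (SD, 3 libraries each), beside 9.19% and 10.9% for Gjb1. The other genes like Gjb1 were level between full and BEC at other shares: Hrg at 0.952% ± 0.176 and 1.11% ± 0.241, Pon1 at 1.02% ± 0.106 and 1.08% ± 0.259, and Bphl at 24.8% ± 1.63 and 24.7% ± 1.24 (SD, n = 3 each). Of those like Gjb2, Hc went from 2.39% ± 0.830 in full to 1.20% ± 0.551 in BEC and Ak4 from 2.76% ± 1.04 to 1.29% ± 0.359 (SD, n = 3 each), without overlap between the groups, while Sord and Apom overlapped. No test is given, since these genes were chosen for their profile.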

How the data were processed

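RNA of 12 libraries of sorted liver cells was sequenced, and the authors deposited raw counts per gene symbol. The submitters' processing notes name STAR 2.7.10b, featureCounts 2.0.1, DESeq2 and GRCm39, with no role stated. The annotation, the strand setting and how multi-mapping reads were handled are not given in the sources used here, so overlapping and closely similar genes are uncertain. Groups and replicate numbers were taken from the sample titles. The table held 53599 rows, and every row had a gene name (0 unnamed) and every column a sample (0 unmatched).

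Counts were tested with edgeR 4.0.16 in R 4.3.3 (quasi-likelihood, TMM factors, all 12 libraries in 1 fit with a term per group). Genes passing filterByExpr (16210) were tested, with Benjamini-Hochberg adjustment over all of them and calls under 0.05. Figures used matplotlib 3.10.9. Fold changes are relative to the TMM scale: with total counts only, the median over all genes went from 0.06 to 0.72 (log2) for intermediate against early and from 0.01 to 0.21 for full against intermediate, and the share of calls that were higher moved from 52.8% to 85.6% and from 51.2% to 72.5%. Ratios of counts add 0.5 to each count. Floors of 3 counts account for counting error alone, because PCR copies are not separate molecules. Lengths are those of GENCODE M21 (GRCm38), another build than that of the counts.

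Same-numbered libraries deviated together at the 3 steps (r from 0.121 to 0.293, 0.137 to 0.322 and 0.170 to 0.257 across genes), so the numbers may pair the libraries there. Differently numbered libraries were not compared, and what the numbers mark was not stated. The main fit took no account of the numbers, and the replicate block did. The members and the gene lists were chosen with earlier results of these data known. Named genes are the 4 members, every other connexin or pannexin that passed the filter, the 2 most abundant genes of each list described and those against its direction, and the 5 genes most like each member; a few genes that this rule would name are not reported here. Of the cell type lists, examples are given where they touch a member, and marker genes near 0 were named after their values were seen, as were the percentages of early of genes like a member. Alternatives were DESeq2 1.42.0, total counts or median-of-ratios scaling, no filter, a mean of at least 50 counts, the 6 libraries of each pair of groups, a replicate block, a minimum 2-fold change, each library left out, and other lengths. The fit was also run on simulated data in which few genes changed, equally in both directions. That run could not probe the scaling of libraries in which many genes differ.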

Additional observations from a re-analysis of the deposited data

How the results depend on the processing

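All calls of Gjb1, Gjb2 and Gja1 in the 6 comparisons of groups kept their direction and side of the threshold under every alternative run, except those given here. With a minimum 2-fold change, Gjb2 in BEC against full (-0.90) and Gja1 in BEC against full (1.45) were not called, nor were Gjb5 in BEC against full (1.96) or Gjc3 (-1.87) and Gja5 (2.15) in intermediate against early and Panx2 in full against intermediate (1.82), and fewer genes passed by construction: 2773, 1931 and 803 at the 3 steps, 5671 (full against early), 6129 (BEC against early), 3202 (BEC against intermediate) and 667 for the difference of the first 2 steps. That last count was 6145 with total counts and 1675 to 2863 with 1 library left out, the lowest without intermediate replicate 2, against 2665. Gja1 in intermediate against early was 1.57 with total counts and 0.31 to 1.72 with 1 library left out. Gjb1 in BEC against full was 0.264 with DESeq2, 0.258 with the replicate block and 0.19 to 0.34 with 1 library left out. The difference of the first 2 steps was -0.39 for Gjb1 and -0.81 for Gjb2 with total counts, and ran from -0.0205 to 0.126 for Gjb1 and from -0.62 to 0.0662 for Gjb2 with 1 library left out. That of Gja1 ran from 3.68 to 5.08 over all alternatives, Gja1 in full against early from 5.70 to 7.17 and Gja1 in BEC against early from 7.15 to 8.62, all called. The cause of these changes was not tested.

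The replicate block called 9276, 7300 and 4096 genes at the 3 steps, against 8817, 6590 and 3445, and among the members it changed only the call of Gjb1 in BEC against full. At the 3 steps, values of other channel genes that changed sign, none called, were Gja5 in full against intermediate (0.0465 with total counts, -0.57 to 0.13 with 1 library left out), Panx1 in the same comparison (-0.0518 to 0.0728) and Gjc3 in BEC against full (-1.64 to 1.70). Gjb5 in intermediate against early, not called either, ran from -2.90 to 0, the latter without early replicate 3, which holds its only count in these groups.

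Shares among the 4 members moved with length. With coding length, Gjb1 was 53.8%, 62.4%, 59.6% and 51.6% in early, intermediate, full and BEC, Gjb2 46.2%, 37.4% and 19.1% in the first 3, Gja1 0.0221%, 0.160%, 20.9% and 41.0%, and Gjc1 0.374% in full. With the longest transcript, Gjb1 was 73.2% in full and 66.1% in BEC, Gjb2 5.00% in BEC, and Gja1 0.0157%, 0.107%, 14.1% and 28.9%. Depth limits Gjc1, Gja4, Gja5, Gjb5 and Gjc3, which rest on at most 67 counts in any library.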
